A study of Mus musculus with 10 samples.

Results

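The genes described here make sterols and fatty acids or control and export these lipids. They were taken as the rows named after 35 such genes in the tables of knockout and wild-type Treg. Treg, or regulatory T cells, are CD4 lymphocytes that dampen immunity and need Foxp3, a transcription factor. Of the 35 genes, 34 had a row among the 32767 listed genes, and 32 of these were expressed highly enough to be tested, which required at least 1 FPKM in at least 2 of the 4 libraries. FPKM counts fragments relative to transcript length and to all mapped fragments, a level per length, and can be compared between genes. The level of Hmgcs1 was not analysed here, though its promoter is counted among the sequences, and Scd1 and Fads2 stayed under the limit.

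Cells were taken from the spleen and lymph nodes of mice on the C57BL/6 background. The knockout cells (dKO, 2 libraries) were Treg of Foxp3cre/wt Tcf7fl/fl Lef1fl/fl mice, in which both the gene of the transcription factor TCF1 (Tcf7) and the related Lef1 carry loxP sites. The wild-type cells (WT, 2 libraries) were Treg of Foxp3cre/wt Tcf7wt/wt Lef1wt/wt mice. Both genotypes carry 1 cre allele at Foxp3, which acts only in cells that have expressed Foxp3, and the cells were sorted by YFP, so the Treg of the same mice without cre were left out. The labels give no age, and they leave unsaid whether each library is another animal. The p-values therefore cover only library-to-library spread, part of which may be technical.

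Lef1 fell to 71.6 and 62.8 FPKM in the dKO libraries, against 160 and 167 FPKM in the WT libraries (limma log2 fold change -1.27, standard error (SE) 0.09, adjusted p = 0.016). Lef1 missed the threshold with the replicate block (limma adjusted p = 0.054), without a filter on low values (0.097), without WT replicate 1 (0.115) and without WT replicate 2 (0.166), at log2 fold changes of -1.30 to -1.25. Tcf7 had 316 and 272 FPKM in dKO and 456 and 501 FPKM in WT (log2 fold change -0.70, SE 0.10, limma adjusted p = 0.081). The deleted exons are not given, and the remaining exons count towards these values. Foxp3 was present in every library at 106 to 126 FPKM, and the 8 Treg markers examined were at 27.9 FPKM or more. None of the 8 passed, against 0.7% of all tested genes, but 5 had an unadjusted p under 0.05, against 17.3%. Ikzf2 had 27.9 and 46.9 FPKM in dKO and 77.3 and 60.4 FPKM in WT, Cd4 had 187 and 264 FPKM in dKO and 384 and 411 FPKM in WT, and Izumo1r had 216 and 300.5 FPKM in dKO and 483 and 440.2 FPKM in WT. The log2 fold changes were -0.90, -0.83 and -0.85 for these 3, and 0.33 for Il2ra and 0.28 for Cd3e. Their part in the values of the lipid genes was not tested. The summed level of 16 macrophage and monocyte markers was 13.6 and 146 FPKM in dKO replicates 1 and 2, and 16.2 and 8.40 FPKM in the WT libraries. Of these, Cd14 and Spic were listed at 0 in dKO replicate 1 and WT replicate 2. The highest sum in any library was 25.2 FPKM for 8 B cell markers, mostly Cd79b, and 54.6 FPKM for 8 CD8 T and NK markers, mostly Nkg7 and Cd8b1. It was 102 FPKM for 8 plasmacytoid dendritic cell markers, mostly Bst2, and 5.83 FPKM for 8 erythroid markers. The most common ratio among values under 0.3 FPKM, shared by 3.70% to 4.38% of those genes, puts the depth of dKO replicates 1 and 2 and of WT replicate 2 at about 67.7%, 71.1% and 72.3% of that of WT replicate 1.

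Cholesterol is built from acetyl-CoA through mevalonate, farnesyl diphosphate, squalene and lanosterol. The membrane-bound transcription factors SREBP1 and SREBP2 (genes Srebf1 and Srebf2) switch on these enzymes when sterols are low. Scap escorts them to the Golgi, and the Insig proteins hold them back in the endoplasmic reticulum when sterols are plentiful. SREBP1 mainly drives fatty acid synthesis, and the oxysterol receptors LXR induce the cholesterol exporters Abca1 and Abcg1. T cells need sterols and fatty acids to build membranes when they divide, and in Treg the mevalonate pathway is known to be needed for suppressive function.

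Promoter sequence was read for motifs as a description of the members apart from their levels. For 27 of the 35 genes, RefSeq (GRCm38.p6) gave 1 or more windows, 35 windows in all. Each ran from 250 bases before to 50 bases after a gene start, and letter motifs were searched on both strands. A gene was counted once if any of its windows held the motif, among members and tested genes alike. The box CCAAT, which the factor NF-Y binds beside SREBP, was in the windows of 20 of these 27 genes (74.1%), against 43.5% of 7840 tested genes with a window. The E-box form TCACGTG, which SREBP1 can bind, was in 3 of 27 (11.1%, Hsd17b7, Insig1 and Sc5d), against 7.45% of the tested genes. The sterol regulatory element core TCACNCCAC was in 1 of 27 (3.70%, Hmgcs1), against 1.39%. Hmgcs1 was not among the tested genes, so no tested member had this core. The shorter form of the element, CACNCCAC, which lies inside the longer motif, was in 3 of 27 (11.1%, Acat2, Hmgcs1 and Insig1), against 7.50%. The TCF/LEF cores CTTTGAA and CTTTGAT were in 2 (7.41%, Elovl6 and Pmvk) and 0 of the 27 genes, against 4.29% and 2.97%. The direct repeat bound by LXR was in none of the 27 and in none of the tested genes' windows. These are letter matches and not measured binding, the motifs were chosen with results known (the E-box after these sequences were seen), and no test was made on the shares.

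Insig1 and Hsd17b7 are shown for their E-box and Msmo1 for its 3 CCAAT boxes, chosen as examples after their motifs and values were seen. In all 3 genes WT replicate 1 was the lowest library, as in 46.9% of the tested members and 32.1% of all tested genes. Because of how the genes were chosen, no link between motif and level can be read from this. Mvk and Elovl6 are shown as the members with the largest log2 fold change in each direction between the genotypes. Capitals mark the CCAAT box, which reads ATTGG where it lies on the other strand, and the E-box TCACGTG in the first 4 windows, and the TCF/LEF core (TTCAAAG on the other strand) in Elovl6. Insig1 is chr5:28071162-28071461 (plus strand), Hsd17b7 is chr1:169969156-169969455 (minus strand), Msmo1 is chr8:64733529-64733828 (minus strand), Mvk is chr5:114444019-114444318 (plus strand) and Elovl6 is chr3:129532136-129532435 (plus strand).
Insig1: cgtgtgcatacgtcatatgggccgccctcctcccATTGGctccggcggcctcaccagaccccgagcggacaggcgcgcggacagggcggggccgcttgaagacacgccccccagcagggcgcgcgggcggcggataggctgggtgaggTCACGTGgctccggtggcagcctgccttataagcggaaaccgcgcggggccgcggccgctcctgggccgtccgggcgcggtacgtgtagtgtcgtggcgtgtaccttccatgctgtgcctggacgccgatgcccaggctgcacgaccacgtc
Hsd17b7: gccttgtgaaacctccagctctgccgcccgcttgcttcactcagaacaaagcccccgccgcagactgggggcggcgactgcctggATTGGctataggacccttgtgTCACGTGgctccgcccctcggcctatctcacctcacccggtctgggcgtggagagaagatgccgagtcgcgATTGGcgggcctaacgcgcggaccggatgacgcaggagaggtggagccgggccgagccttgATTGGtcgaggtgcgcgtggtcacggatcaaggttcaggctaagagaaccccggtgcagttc
Msmo1: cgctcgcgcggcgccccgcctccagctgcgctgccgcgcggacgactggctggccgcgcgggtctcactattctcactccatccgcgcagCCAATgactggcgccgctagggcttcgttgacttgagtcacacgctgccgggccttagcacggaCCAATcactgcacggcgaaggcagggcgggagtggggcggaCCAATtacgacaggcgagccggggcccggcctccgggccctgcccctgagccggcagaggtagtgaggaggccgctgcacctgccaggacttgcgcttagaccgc
Mvk: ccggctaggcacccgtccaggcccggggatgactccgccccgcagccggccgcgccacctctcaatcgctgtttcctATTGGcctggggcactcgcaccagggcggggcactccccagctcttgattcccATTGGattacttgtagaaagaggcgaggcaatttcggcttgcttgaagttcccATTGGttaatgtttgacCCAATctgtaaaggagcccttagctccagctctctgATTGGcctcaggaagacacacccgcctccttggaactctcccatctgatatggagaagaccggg
Elovl6: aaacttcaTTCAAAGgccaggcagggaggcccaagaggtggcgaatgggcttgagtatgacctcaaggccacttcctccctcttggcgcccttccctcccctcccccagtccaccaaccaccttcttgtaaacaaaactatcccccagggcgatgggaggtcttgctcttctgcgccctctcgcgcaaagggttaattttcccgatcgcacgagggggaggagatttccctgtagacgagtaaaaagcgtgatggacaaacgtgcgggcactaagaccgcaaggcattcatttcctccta
Counted from the RefSeq gene's first base as 0, the E-box begins at position -102 in Insig1 and -144 in Hsd17b7. Mvk holds 5 CCAAT boxes and Msmo1 and Hsd17b7 hold 3 each. The TCF/LEF core of Elovl6 begins at position -242. Gene spans given elsewhere are those of GENCODE, whose starts can differ from RefSeq's, as for Insig1 and Elovl6.

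The members spanned a wide range of levels in both genotypes. Srebf2 had the highest mean in both groups and lay at the 91.5th percentile of tested genes. It averaged 99.2 ± 8.60 FPKM in dKO (SD, n = 2), and its value in every library is given with the control genes. Acly, which supplies cytosolic acetyl-CoA from citrate, came next with 87.1 ± 4.19 FPKM in dKO and 87.3 ± 4.38 FPKM in WT (SD, n = 2 each), below Srebf2 in each of the 4 libraries. Srebf1 followed with 80.3 ± 8.63 FPKM in dKO and 76.7 ± 0.68 FPKM in WT, and its dKO values overlapped those of Acly and of Ebp. Ebp, the sterol isomerase, was the most abundant of the sterol enzymes, at 76.0 ± 5.28 FPKM in dKO and 72.9 ± 2.79 FPKM in WT, and Nr1h2, which encodes LXR beta, followed with 67.9 ± 2.09 FPKM in dKO and 69.3 ± 3.82 FPKM in WT. The lowest mean of a tested member was that of Elovl6 in dKO (2.82 ± 0.12 FPKM) and that of Hsd17b7 in WT (3.87 ± 1.22 FPKM).

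**Figure D1:**
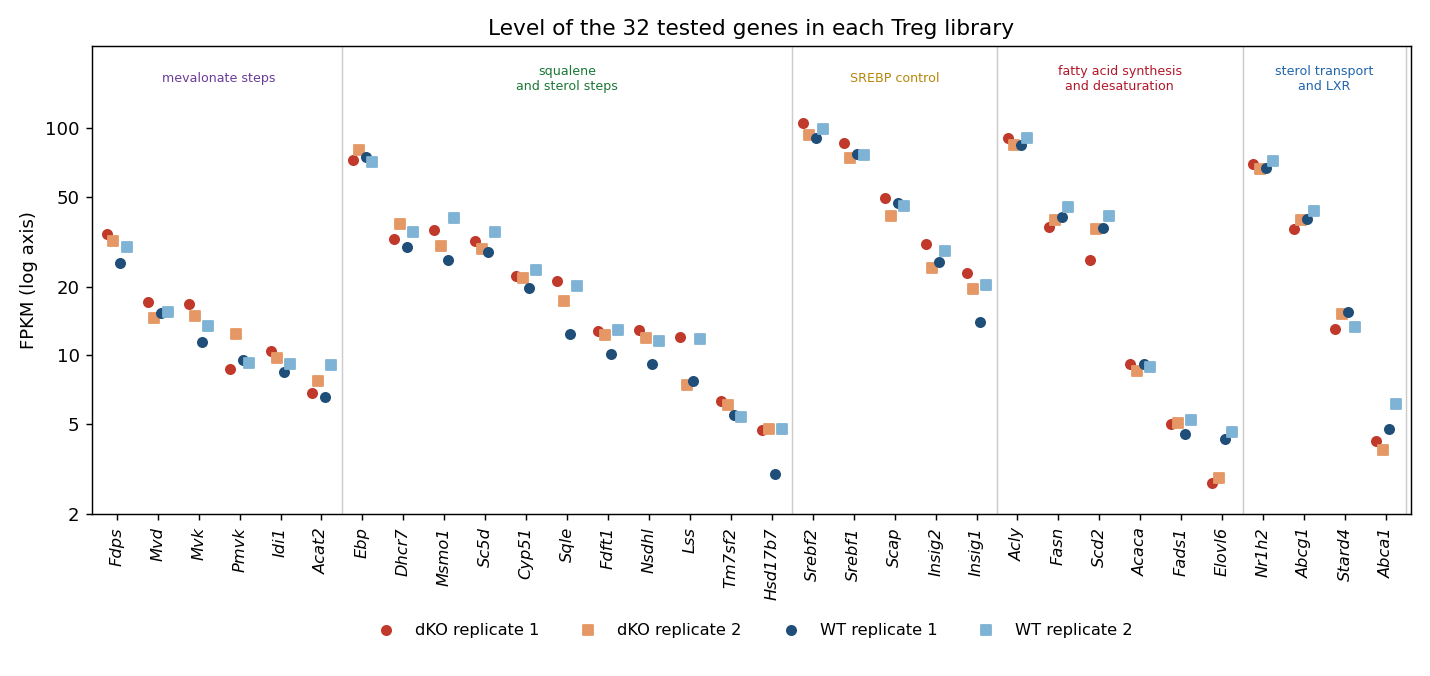
Level in FPKM (log axis) of the 32 tested genes in the 2 dKO libraries (red and orange) and the 2 WT libraries (dark and light blue), grouped by role and ordered by mean level. WT replicate 1 is the lowest point for many sterol enzymes, such as Sqle at 12.5 FPKM, and both dKO points of Elovl6 lie below both WT points.

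The comparison sets Treg with floxed Tcf7 and Lef1 against Treg with intact alleles. No member passed the limma threshold (adjusted p under 0.05 over all 10710 tested genes), while 0.7% of all tested genes did. At an unadjusted p under 0.05 there were 2 of 32 members, against 17.3% of all tested genes. One was Mvk, with more in dKO (8.72% of all genes), and the other Elovl6, with less (8.63%). Both dKO libraries lay above both WT libraries in 5 members, against 26.6% of all tested genes, and below them in 5, against 24.2%. Together these are 10 of 32, while 50.8% of all tested genes had groups that did not overlap. The median log2 fold change (dKO minus WT, of FPKM + 1) was 0.03 over the members and 0.01 over all tested genes. The fold change was above 0 in 19 members and below 0 in 13, and above 0 in 52.8% of all tested genes. The members' 95% intervals all lay within a 2-fold change in either direction on this scale, as did those of 90.8% of all tested genes. Within 1.5-fold lay 22 of the 32 (68.75%), against 70.8% of all tested genes. The intervals are not adjusted for the number of genes. In these bulk samples, a change in RNA per cell and a change in the share of cells of a kind cannot be told apart.

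**Figure D2:**
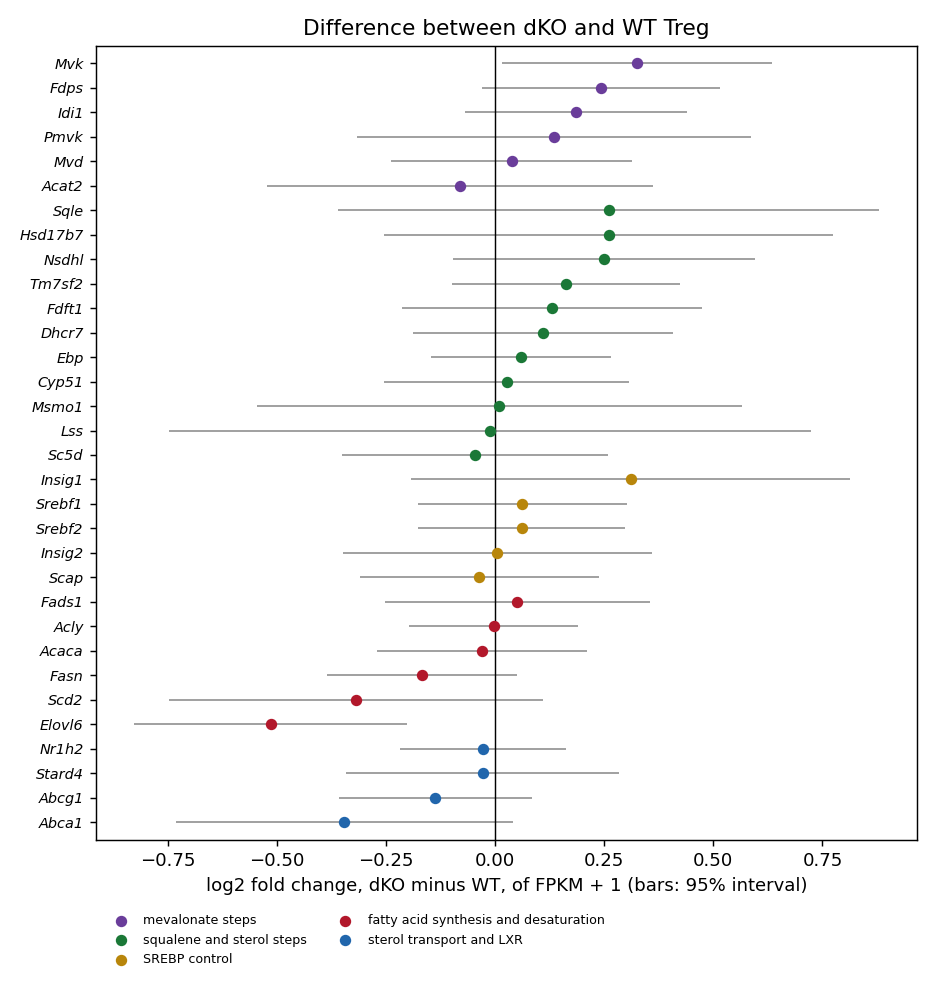
Log2 fold change of FPKM + 1, dKO minus WT, of each tested gene, with its 95% interval from limma, grouped by role. Points of the mevalonate and sterol steps lie mostly right of 0 and those of the fatty acid and export genes mostly left of it, and only the intervals of Mvk and Elovl6 leave out 0.

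The mevalonate steps had a median log2 fold change of 0.16 over 6 tested genes, 5 of them above 0. Mvk, which phosphorylates mevalonate, had 16.9 and 14.8 FPKM in dKO and 11.5 and 13.5 FPKM in WT. Both dKO values were above both WT values, with a log2 fold change of 0.32 (SE 0.12, 95% interval 0.02 to 0.63), an unadjusted p of 0.043 and a limma adjusted p = 0.27. The fold change was 0.22 without WT replicate 1 and 0.43 without WT replicate 2. Fdps, which makes farnesyl diphosphate for sterols and for protein prenylation, had 34.2 and 31.8 FPKM in dKO and 25.5 and 30.1 FPKM in WT. Its groups did not overlap either, but its interval of -0.03 to 0.52 includes 0 (adjusted p = 0.33). Idi1, the isomerase that interconverts the isoprenoid building blocks, showed the same order, with 10.5 and 9.74 FPKM in dKO and 8.43 and 9.13 FPKM in WT.

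The other 3 mevalonate genes overlapped between the genotypes. Mvd, which decarboxylates the diphosphate of mevalonate, had 17.2 and 14.5 FPKM in dKO and 15.3 and 15.5 FPKM in WT (adjusted p = 0.89). Pmvk, the second kinase of the pathway, had 8.68 and 12.4 FPKM in dKO and 9.52 and 9.25 FPKM in WT. Acat2, the thiolase that joins acetyl-CoA units, had 6.85 and 7.68 FPKM in dKO and 6.55 and 9.12 FPKM in WT. In each of these 3, the spread within at least 1 genotype exceeded the difference between the genotypes. On GRCm38, Mvk lies on chromosome 5 from 114444269 to 114460591, and Fdps on chromosome 3 from 89093588 to 89101959. The annotation has genes that overlap Mvd (Gm20388), Fdps (Gm43738), Fdft1 (Ctsb), Cyp51 (Akap9), Tm7sf2 (Vps51) and Srebf1 (Rai1). Vps51 and Gm43738 lie on the same strand as Tm7sf2 and Fdps, so strand would not separate their reads. The others lie on the opposite strand, and use of strand in the quantification is not given in the sources used here. The levels of these 6 members are uncertain. Further members also overlap annotated genes, among them Elovl6 (Gm43072 on the same strand and Gm35986), Srebf2 (Gm49502), Acaca (Gm11437) and Abcg1 (Gm25447). The effect of these overlaps on their levels is not known.

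The steps from squalene to cholesterol had a median of 0.11 over 11 tested genes, 9 of them above 0. Without WT replicate 1 the median was -0.031, with 5 above 0 and 6 below, and without WT replicate 2 it was 0.26, with 11 of 11 above 0. The WT libraries differed from each other by more than the genotypes did in 10 of 11 genes, against 44.8% of all tested genes. Sqle, the squalene epoxidase and a rate-setting step, had 21.2 and 17.4 FPKM in dKO and 12.5 and 20.2 FPKM in WT. Only WT replicate 1 stood apart, 1.62-fold below WT replicate 2, and the log2 fold change of 0.26 has a wide interval (-0.36 to 0.88, limma adjusted p = 0.62). Without WT replicate 1 it was -0.067, and without WT replicate 2 it was 0.59. Hsd17b7, a ketoreductase of the demethylation of lanosterol, had 4.72 and 4.77 FPKM in dKO and 3.01 and 4.73 FPKM in WT. Again WT replicate 1 alone was low, and the log2 fold change of 0.26 was 0.0026 without it and 0.52 without WT replicate 2.

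Nsdhl and Msmo1 act in the same demethylation. Nsdhl had 13.0 and 12.0 FPKM in dKO and 9.18 and 11.6 FPKM in WT, without overlap (log2 fold change 0.25, SE 0.13, limma adjusted p = 0.40). That fold change was 0.095 without WT replicate 1 and 0.40 without WT replicate 2. Msmo1 had 35.7 and 30.3 FPKM in dKO and 26.4 and 40.4 FPKM in WT, so the WT libraries enclosed both dKO libraries. The same held for 3 others. Fdft1, the squalene synthase, had 12.9 and 12.3 FPKM in dKO and 10.1 and 12.9 FPKM in WT. Cyp51, the lanosterol demethylase, had 22.4 and 21.8 FPKM in dKO and 19.8 and 23.7 FPKM in WT. Sc5d, a sterol desaturase, had 31.8 and 29.4 FPKM in dKO and 28.6 and 34.9 FPKM in WT.

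Lss, which closes squalene epoxide into lanosterol, differed within both genotypes, with 12.1 and 7.39 FPKM in dKO and 7.74 and 11.8 FPKM in WT. The lower library was replicate 2 in dKO and replicate 1 in WT, and the log2 fold change was -0.01 (SE 0.28). Dhcr7, the reductase that ends one branch of the pathway, had 32.5 and 37.8 FPKM in dKO and 30.1 and 34.8 FPKM in WT. Ebp had 72.3 and 79.8 FPKM in dKO and 74.8 and 70.9 FPKM in WT, and its interval of -0.15 to 0.27 is the narrowest of the sterol enzymes. Tm7sf2, a sterol reductase, had 6.31 and 6.08 FPKM in dKO and 5.48 and 5.37 FPKM in WT, without overlap.

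The 17 tested enzymes of both sterol stages were pooled as a group that was not planned. Among these 17, the WT libraries differed from each other by more than the genotypes did in 11 (64.7%), against 44.8% of all tested genes. This held in only 1 of 6 mevalonate steps (16.7%), but in 10 of 11 squalene and sterol steps (90.9%). WT replicate 1 was the lowest of the 4 libraries in 12 of the 17 enzymes (70.6%), against 32.1% of all tested genes. WT replicate 2 exceeded WT replicate 1 in 14 of 17, with a median difference of 0.25 on the log2 scale, against 0.03 over all tested genes. The median dKO minus WT difference of the 17 enzymes was 0.13. Without WT replicate 1 it was 0.0087, with 10 enzymes above 0, and without WT replicate 2 it was 0.24, with 17 above 0. By the approximate ratio of low values, WT replicate 1 was the deepest library, and the part of depth in this pattern was not tested. Proliferation genes took another order. Of 22 tested, 20 were lowest in WT replicate 2 and 21 highest in dKO replicate 2, against 18.8% and 23.6% of all tested genes. All 22 had a log2 fold change above 0 (median 0.35), against 52.8% of all tested genes. None passed the limma threshold, against 0.7%, and 3 had an unadjusted p under 0.05, against 17.3%. Both dKO libraries lay above both WT libraries in 8 of the 22, against 26.6%. The WT libraries differed from each other by more than the genotypes did in 13 (59.1%), against 44.8%. The summed level of the 24 listed was 364 and 454 FPKM in dKO and 367 and 307 FPKM in WT. The part of proliferation in the sterol values was not tested.

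**Figure D3:**
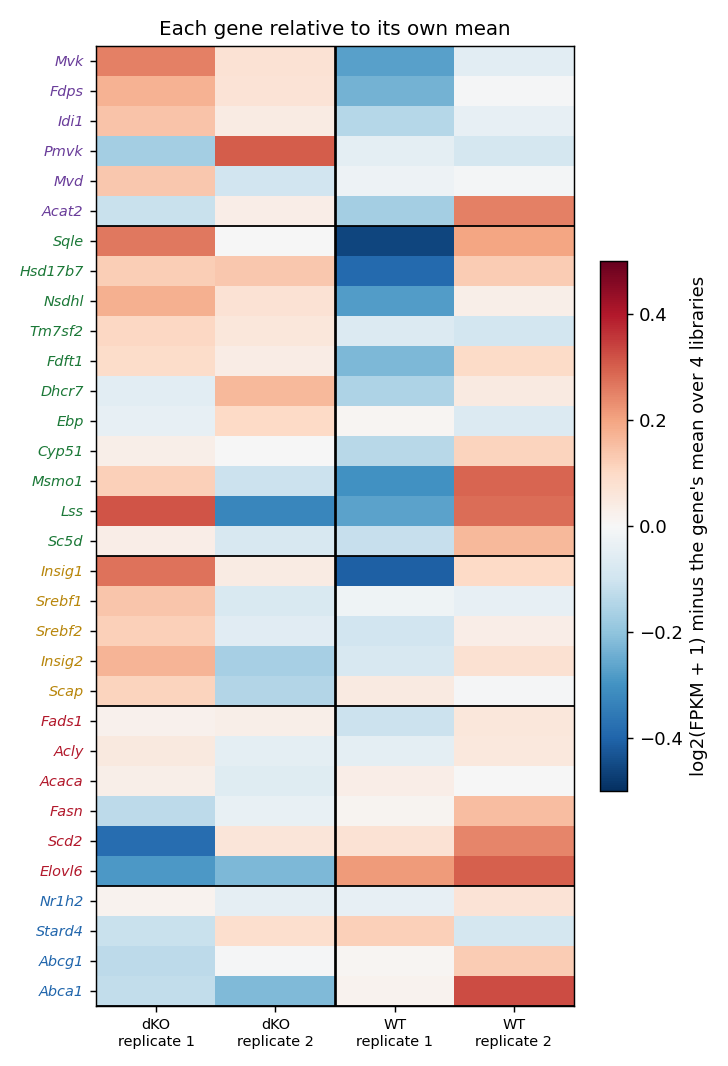
Level of each tested gene, as log2(FPKM + 1) minus the gene's own mean over the 4 libraries, with dKO libraries left of WT libraries and genes grouped by role (horizontal lines; label colours as in the fold change plot). The WT replicate 1 column is below the mean for most mevalonate and sterol enzymes and for Insig1, and Elovl6 is below its mean in both dKO libraries.

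Among the control genes, the log2 fold changes were near 0 apart from Insig1, and the group median was 0.06 over 5 genes. Srebf2 had 105 and 93.2 FPKM in dKO and 90.7 and 99.4 FPKM in WT, and Srebf1 had 86.4 and 74.2 FPKM in dKO and 77.1 and 76.2 FPKM in WT. Their unadjusted intervals, -0.18 to 0.30 for both, lay within 1.5-fold in either direction on this scale. These intervals cover only library-to-library spread, so a larger difference between the genotypes is not excluded. The level of Srebf1 is also uncertain because of its overlap with Rai1. Scap had 49.3 and 41.0 FPKM in dKO and 47.0 and 45.3 FPKM in WT. dKO replicate 1 was the highest library in 5 of 5 control genes, against 30.1% of all tested genes, and the group median was -0.05 without it and 0.17 without dKO replicate 2, and below 0 also without WT replicate 1 (-0.0045).

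The paralogs Insig1 and Insig2 differed in their pattern. Insig1, which SREBP itself induces, had 23.1 and 19.5 FPKM in dKO and 14.0 and 20.4 FPKM in WT, so that WT replicate 1 was low, as it was for Sqle. Its log2 fold change was 0.31 (SE 0.19, 95% interval -0.19 to 0.81, limma adjusted p = 0.47). It was 0.055 without WT replicate 1 and 0.57 without WT replicate 2. Insig2 had 30.9 and 24.3 FPKM in dKO and 25.9 and 28.9 FPKM in WT, with a log2 fold change of 0.0047 (SE 0.14). Insig1 lies on chromosome 5 from 28071363 to 28078662 and Insig2 on chromosome 1 from 121304353 to 121332589.

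Fatty acid synthesis and desaturation genes had a median of -0.10 over 6 tested genes, 5 of them below 0. Elovl6, the elongase that turns palmitate into stearate, had 2.74 and 2.90 FPKM in dKO and 4.30 and 4.62 FPKM in WT. Both dKO values were below both WT values, and the spread within each genotype was small. The log2 fold change of -0.51 (SE 0.12, 95% interval -0.83 to -0.20) was the largest of any member and had an unadjusted p of 0.0086, but the limma adjusted p = 0.15 missed the threshold. Its linear ratio of means, dKO over WT, was 0.63. Without each library in turn the log2 fold change ranged from -0.56 to -0.47. Elovl6 lies on chromosome 3 from 129532355 to 129638495.

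Scd2, a desaturase that makes monounsaturated fatty acids, had 26.2 and 35.8 FPKM in dKO and 36.2 and 40.9 FPKM in WT. dKO replicate 2 nearly reached WT replicate 1, and the interval of -0.75 to 0.11 includes 0 (limma adjusted p = 0.39). The log2 fold change of -0.32 was -0.10 without dKO replicate 1 and -0.54 without dKO replicate 2. Its paralog Scd1 stayed at or below 0.12 FPKM in the 4 libraries, and Scd3 and Scd4 at or below 0.33 FPKM. Reads from near-identical stretches of these paralogs may be shared between them. Fasn, the fatty acid synthase, had 36.9 and 39.4 FPKM in dKO and 40.9 and 45.1 FPKM in WT, also without overlap (log2 fold change -0.17, SE 0.08, adjusted p = 0.38).

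Acly had 90.1 and 84.2 FPKM in dKO and 84.2 and 90.4 FPKM in WT, with a log2 fold change of -0.0031 and an interval of -0.20 to 0.19. Acaca, the acetyl-CoA carboxylase that commits carbon to fatty acids, had 9.15 and 8.54 FPKM in dKO and 9.18 and 8.92 FPKM in WT. In both genes the groups overlapped. The desaturase Fads1 had 5.02 and 5.07 FPKM in dKO and 4.51 and 5.18 FPKM in WT. Fads2 stayed at or below 0.057 FPKM and was listed at 0 in WT replicate 2, so no comparison was made for it.

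The sterol transport and LXR genes had a median of -0.08, with 4 of 4 below 0. Abca1, which exports cholesterol to apolipoproteins, had 4.19 and 3.85 FPKM in dKO and 4.73 and 6.10 FPKM in WT. The groups did not overlap, and the log2 fold change was -0.35 (SE 0.15, 95% interval -0.73 to 0.04, limma adjusted p = 0.33). It was -0.50 without WT replicate 1 and -0.19 without WT replicate 2. Abcg1, the exporter to lipoprotein particles, had 36.0 and 39.4 FPKM in dKO and 39.9 and 43.2 FPKM in WT, with a narrow gap between the groups (log2 fold change -0.14, SE 0.09, limma adjusted p = 0.47). Stard4, a soluble sterol carrier, had 13.1 and 15.2 FPKM in dKO and 15.5 and 13.3 FPKM in WT. Nr1h2 had 69.4 and 66.4 FPKM in dKO and 66.6 and 72.0 FPKM in WT.

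Macrophages also express both exporters. dKO replicate 2, the library with 146 FPKM of macrophage markers, had the lowest Abca1 of the 4 libraries, whereas its Abcg1 (39.4 FPKM) was above that of dKO replicate 1 (36.0 FPKM). The apolipoprotein gene Apoe had 4.02 and 43.7 FPKM in dKO and 5.30 and 2.36 FPKM in WT, and Nr1h3, which encodes LXR alpha and is typical of macrophages, had 0.77 and 2.05 FPKM in dKO and 0.42 and 0.54 FPKM in WT. All 5 tested markers of the macrophage list had positive log2 fold changes, against 52.8% of all tested genes. The list holds 16 markers, and 4 of the 5 tested were highest in dKO replicate 2, against 23.6% of all tested genes. Csf1r, which was not tested, had 0.21 and 8.51 FPKM in dKO and 0.26 and 0.029 FPKM in WT. The part of other cells in the values of the sterol genes was not tested.

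**Figure D4:**
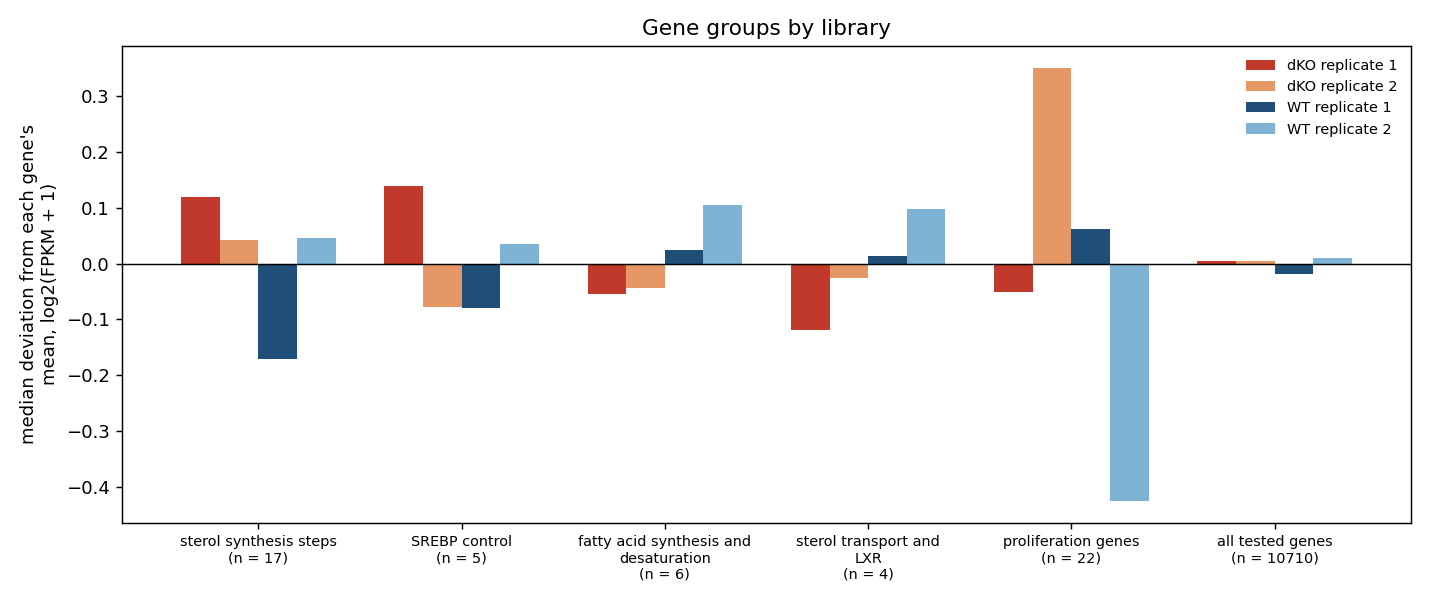
Median deviation of each gene group from the genes' own means, in log2(FPKM + 1), for the 2 dKO libraries (red and orange) and the 2 WT libraries (dark and light blue), with the number of tested genes under each group. The 17 sterol enzymes are lowest in WT replicate 1, whereas the 22 proliferation genes are lowest in WT replicate 2.

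Further genes of lipid synthesis, uptake and storage were read from a list of 39 that holds none of the members. Of these, 31 were tested and none passed over all genes. At an unadjusted p under 0.05 there were 8 of 31, 4 in each direction, against 17.3% of all tested genes. The median log2 fold change was 0.0034, with 16 genes above 0 and 15 below. Both dKO libraries lay above both WT libraries in 9 genes, against 26.6% of all tested genes, and below them in 11, against 24.2%, which together is 20 of 31, against 50.8%.

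Lipa, the lysosomal acid lipase that frees cholesterol from its esters, had the largest difference with a small spread. It had 28.5 and 32.5 FPKM in dKO and 51.0 and 59.7 FPKM in WT. The log2 fold change was -0.84 (SE 0.11, 95% interval -1.13 to -0.54), and the limma adjusted p = 0.072 narrowly missed the threshold. It passed when genes listed at 0 in any library were left out (adjusted p = 0.043), and over the alternatives its adjusted p ranged from 0.043 to 0.26. Macrophages also express Lipa, and dKO replicate 2 was the library with the most macrophage marker RNA. The part of other cells in the values of Lipa was not tested.

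Acss2, which makes acetyl-CoA from acetate, had 45.7 and 34.6 FPKM in dKO and 24.4 and 28.8 FPKM in WT (log2 fold change 0.57, SE 0.16, limma adjusted p = 0.205). Mylip, an LXR-induced ubiquitin ligase, had 21.1 and 20.2 FPKM in dKO and 14.2 and 16.8 FPKM in WT (log2 fold change 0.40, SE 0.11, limma adjusted p = 0.19). Scarb1, a receptor for HDL, had 7.61 and 7.78 FPKM in dKO and 5.71 and 6.16 FPKM in WT (adjusted p = 0.22). Hsd17b12, a reductase of fatty acid elongation, had 37.1 and 38.0 FPKM in dKO and 30.1 and 33.5 FPKM in WT (adjusted p = 0.26). In these 4 genes both dKO libraries exceeded both WT libraries.

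The elongase Elovl5 had 85.8 and 95.4 FPKM in dKO and 122 and 110 FPKM in WT, with a log2 fold change of -0.36 (SE 0.09, limma adjusted p = 0.18). Hacd3, a dehydratase of the same elongation cycle, had 32.9 and 37.8 FPKM in dKO and 47.6 and 43.7 FPKM in WT (adjusted p = 0.19). Acsl1, which activates fatty acids with coenzyme A, had 2.91 and 3.35 FPKM in dKO and 4.19 and 4.38 FPKM in WT (adjusted p = 0.26). Like Elovl6, these 3 genes had both dKO libraries below both WT libraries. Elovl1, another elongase of the list, had 61.0 and 61.3 FPKM in dKO and 63.0 and 59.1 FPKM in WT, and its interval of -0.17 to 0.18 is among the narrower ones of the list.

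**Figure D5:**
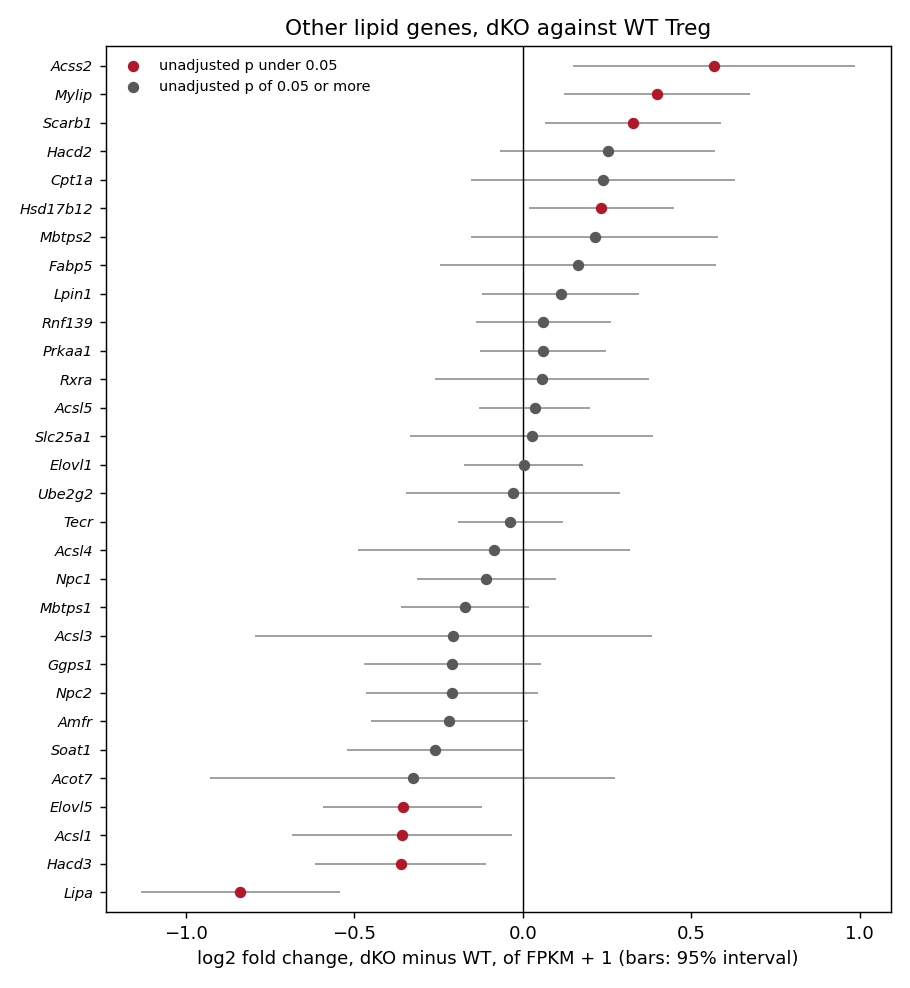
Log2 fold change of FPKM + 1, dKO minus WT, with its 95% interval, of the tested lipid genes outside the member list (Apoe, with an interval of -1.04 to 4.44, is left out of the plot). Red points have an unadjusted p under 0.05, and Lipa at -0.84 lies farthest from 0.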

How the data were processed

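RNA of sorted Treg was measured in 4 libraries, 2 dKO and 2 WT. A stranded TruSeq mRNA kit was used, per the labels' protocols. The deposited values are FPKM per gene and library. The tools STAR and Cuffdiff and the build GRCm38 are named, per the submitters' processing notes. Versions, annotation and any scaling across libraries: not given in the sources used here. Each table held 32767 genes and as many blank rows. Tables of sorted subsets were not used here, because their identifiers do not belong to their values. Without counts the absolute depth is unknown. Relative depth came from the FPKM ratios of genes under 0.3 FPKM.

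Tests used limma 3.58.1 (R 4.3.3) with a variance trend on log2(FPKM + 1), over the 10710 genes that reached 1 FPKM in 2 or more libraries, two-sided, with Benjamini-Hochberg adjustment over all of them, on 2 residual and 2.85 prior degrees of freedom. The added pseudocount shrinks fold changes of genes with low levels. Lists are described by counts and medians, and some genes are not reported here. The script was tested on simulated data. Members and lists were chosen with earlier results of these data known. Values in every library are given for members at an unadjusted p under 0.05, the 5 with the largest fold change in each direction and the 2 most abundant of each role group, and for further members to complete each group; Elovl1, Apoe, Nr1h3 and Csf1r were added after their values were seen. Alternatives covered the pseudocount, filters, scaling, genes listed at 0, a replicate block and each library left out.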

Additional observations from a re-analysis of the deposited data

How the results depend on the processing

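No member passed under any of the 12 alternatives run. The count of all passing genes was 75, against 6 without a filter on low values, 117 without genes listed at 0, 21 with the replicate block and 14 to 136 when 1 library was left out. Members at an unadjusted p under 0.05 numbered 2, against 1 without a filter, 1 with a mean of at least 5 FPKM and 2 to 6 with 1 library left out. Among the other lipid genes 1 (Lipa) passed without genes listed at 0 and none otherwise, and 8 had an unadjusted p under 0.05, against 3 to 10 with 1 library left out. With 1 library left out, the medians ranged from -0.021 to 0.12 for all members, from 0.0087 to 0.24 for the sterol enzymes together, from 0.13 to 0.19 for the mevalonate steps, from -0.03 to 0.26 for the squalene and sterol steps, from -0.05 to 0.17 for the control genes, from -0.14 to -0.074 for the fatty acid genes and from -0.16 to -0.066 for the transport genes. The lone library of a group is then assumed to vary like the other group. The fatty acid median was -0.017 without a filter, because Scd1 and Fads2 then count. Acly changed sign under quantile normalization (0.0047). Changes of sign were followed for 29 single genes, 18 of them members, and not for the remaining members. Among these 29, with 1 library left out, the log2 fold change took both signs for Acly (-0.054 to 0.048), Nr1h2 (-0.083 to 0.027), Sqle (-0.067 to 0.59) and Srebf1 (-0.046 to 0.17). It also did so for Srebf2 (-0.027 to 0.15), Mvd (-0.077 to 0.15), Ebp (-0.011 to 0.13) and Foxp3 (-0.0051 to 0.17). The cause was not tested.

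The replicate numbers mark no stated litter, batch or day, and the replicate differences of dKO and WT had a Pearson correlation of 0.014 and a Spearman correlation of -0.10 across genes, so the replicate block (21 passing genes) is only an alternative. With the crossed pairing, chosen after seeing the data, 162 genes passed and 5 members had an unadjusted p under 0.05. Absolute depth is unknown, so no counting interval could be given for genes near 0.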
